A study of Mus musculus with 8 samples.

Results

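The thrombospondins are a family of secreted glycoproteins of the extracellular matrix, and the mouse genome encodes them in the genes Thbs1, Thbs2, Thbs3, Thbs4 and Comp (cartilage oligomeric matrix protein). The members are the whole family by name and were not picked by their values, but the family was chosen with earlier results of these data known. All 5 were found among the 50462 gene identifiers of the table. Each of the 5 was abundant enough to receive an adjusted p, as did 17760 genes in all.

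The libraries are RNA-seq profiles of medial knee cartilage caps, 1 per mouse, from male wild-type C57Bl/6J mice. The 4 naive mice had no surgery and were sampled on day 0 at 11 weeks of age. The 4 DMM mice received buprenorphine and isoflurane at 11 weeks, had the ligament that holds the medial meniscus to the tibia cut in the left knee, and were sampled on day 42 at 17 weeks. DMM stands for destabilisation of the medial meniscus, a surgical model of post-traumatic osteoarthritis. No sham-operated or age-matched group was analysed here, so the effects of the ligament cut, the operation with its drugs, and the difference in age cannot be told apart.

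All thrombospondins share a carboxy-terminal part made of EGF-like domains, calcium-binding type III repeats and a lectin-like globe. Thbs1 and Thbs2 assemble as trimers and carry a procollagen-like domain and properdin-like repeats, whereas Thbs3, Thbs4 and Comp lack both and assemble as pentamers. In cartilage they bridge collagens, matrilins, proteoglycans and cell-surface integrins. Comp is among the abundant non-collagenous proteins of cartilage, tendon and ligament, mutations in its human counterpart cause pseudoachondroplasia and multiple epiphyseal dysplasia, and its fragments in serum are followed as a marker of joint disease. Thbs1 is stored in platelet granules, releases TGF-beta from its latent complex and binds the receptors Cd36 and Cd47. Thbs2 acts on collagen fibril assembly and on the removal of Mmp2, Thbs3 is expressed in the growing skeleton, and Thbs4 is known from tendon, muscle and nerve.

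In DMM cartilage the transcripts of Comp, Thbs2 and Thbs3 were higher than in naive cartilage, by 2.55-fold, 2.19-fold and 3.36-fold. Thbs1 went the other way, to 0.678 of its naive level, with an adjusted p of 9.03e-05 by DESeq2 but a change under the 1.5-fold threshold. Thbs4 was at 1.10 of its naive level (95% interval 0.772 to 1.56), which did not pass the test. A gene was called at an adjusted p of 0.05 or less together with a change of 1.5-fold or more. Thus 3 of the 5 members were called, all 3 higher and none lower, where 13.7% of all genes tested were called in either direction, 7.75% higher and 5.92% lower. At the adjusted p alone 4 of the 5 passed, beside 22.6% of all genes. The groups did not overlap for Comp, Thbs1 and Thbs3, and 22.2% of all genes tested had groups that did not overlap.

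The libraries held between 12479400 and 16548000 estimated counts. Normalised counts are estimated counts divided by the size factor of the library, and all levels given for single genes are on that scale unless stated. The labels name chondrocytes as the cell type. Of 13 chondrocyte markers 5 were called higher after DMM and none lower, beside 7.75% higher and 5.92% lower of all genes tested. The markers summed to between 41954 and 77354 in naive and between 92230 and 164474 in DMM libraries. Col2a1, singled out for its large part in the sums, had 15101 to 36986 in naive and 40178 to 97826 in DMM libraries. Matn1, another of the list and also singled out, was near absent at 11.97 or less. Markers of marrow and bone were also present in every library, and 8 of 8 neutrophil lineage markers were called lower after DMM (sums of 118356 to 178331 in naive against 51709 to 106636 in DMM libraries). On average, the erythroid, neutrophil lineage and chondrocyte lists took 1.46%, 1.02% and 0.382% of estimated counts in naive libraries. In DMM libraries they took 0.779%, 0.621% and 0.907%. DMM 3 stood apart from the other DMM libraries in its summed erythroid markers, 170410 against 79267 to 84845, so results are also given without it. In bulk tissue, fewer cells of a type and less RNA per cell cannot be told apart.

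The members are related by duplication, so the sequence they share was measured. Between the pentamer-forming genes the coding sequences were 68.8% identical for Thbs3 and Thbs4, 69.5% for Comp and Thbs3, and 70.1% for Comp and Thbs4. Thbs1 and Thbs2 were 67.7% identical, and pairs across the subgroups lay between 61.5% and 64.3%. No stretch of 31 bases in the annotated transcripts of Comp, Thbs2 or Thbs4 occurred in another gene. For Thbs1, 2.682% of such stretches were shared, mostly with the antisense transcript Gm29233, which had at most 4.30 normalised counts in a library. For Thbs3, 4.714% were shared, all with Mtx1, a gene for a mitochondrial import protein that lies across Thbs3 on the opposite strand.

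In the GRCm38 build, Comp spans chr8:70373558-70382066 on the plus strand with 19 exons, and Thbs1 spans chr2:118111876-118127133 on the plus strand with 22 exons. Thbs2 lies at chr17:14665500-14694235 on the minus strand with 22 exons. Thbs3 occupies chr3:89215180-89226837 on the plus strand with 23 exons. Thbs4 occupies chr13:92751590-92794818 on the minus strand with 22 exons. Exon numbers are the annotated exons of the longest coding transcript.

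The 250 bases upstream of the annotated start are shown for Thbs3, Thbs2 and Thbs4 as the members for which the promoter table used here had an entry. They are taken from RefSeq in build GRCm38.p6 and written in the direction of transcription, and 3 of 5 members were matched by symbol. Capitals mark 5 motifs searched on both strands: the TATA core TATAAA, the GC box GGGCGG, the CCAAT box CCAAT, the AP-1 site TGACTCA and the Smad box CAGACA.
Thbs3, chr3:89214930-89215179, plus strand: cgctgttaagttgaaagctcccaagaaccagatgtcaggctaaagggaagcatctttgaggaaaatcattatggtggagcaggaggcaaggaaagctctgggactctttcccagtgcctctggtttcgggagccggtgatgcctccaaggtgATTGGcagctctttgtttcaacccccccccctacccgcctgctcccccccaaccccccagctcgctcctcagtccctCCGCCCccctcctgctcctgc
Thbs2, chr17:14694263-14694512, minus strand: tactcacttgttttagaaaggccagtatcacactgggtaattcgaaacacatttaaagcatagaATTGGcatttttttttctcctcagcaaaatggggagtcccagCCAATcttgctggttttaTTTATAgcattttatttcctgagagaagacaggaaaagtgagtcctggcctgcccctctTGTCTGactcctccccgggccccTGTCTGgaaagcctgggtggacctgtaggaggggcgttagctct
Thbs4, chr13:92794819-92795068, minus strand: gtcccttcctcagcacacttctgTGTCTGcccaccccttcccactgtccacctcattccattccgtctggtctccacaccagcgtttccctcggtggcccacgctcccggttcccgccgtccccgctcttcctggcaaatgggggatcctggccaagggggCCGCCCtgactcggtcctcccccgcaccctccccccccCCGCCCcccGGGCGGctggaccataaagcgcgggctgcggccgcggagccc

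The upstream regions differed in base composition and in the motifs they hold. GC content was 58.8% for Thbs3, 46.8% for Thbs2 and 70.8% for Thbs4, where the median of 32851 mouse promoters was 52.4% (quartiles 45.2% and 61.2%). The TATA core was found in Thbs2 and in 12.4% of all promoters. A GC box was found in Thbs3 and Thbs4 and in 32.7% of all promoters. The CCAAT box was found in Thbs2 and Thbs3 and in 33.8% of all promoters. The Smad box, the short core that Smad proteins recognise, was found in Thbs2 and Thbs4 and in 17.1% of all promoters. None of the 3 held the AP-1 site, which 4.5% of all promoters held. No motif was held by all 3 regions, and a match is a description of letters only.

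**Figure D1:**
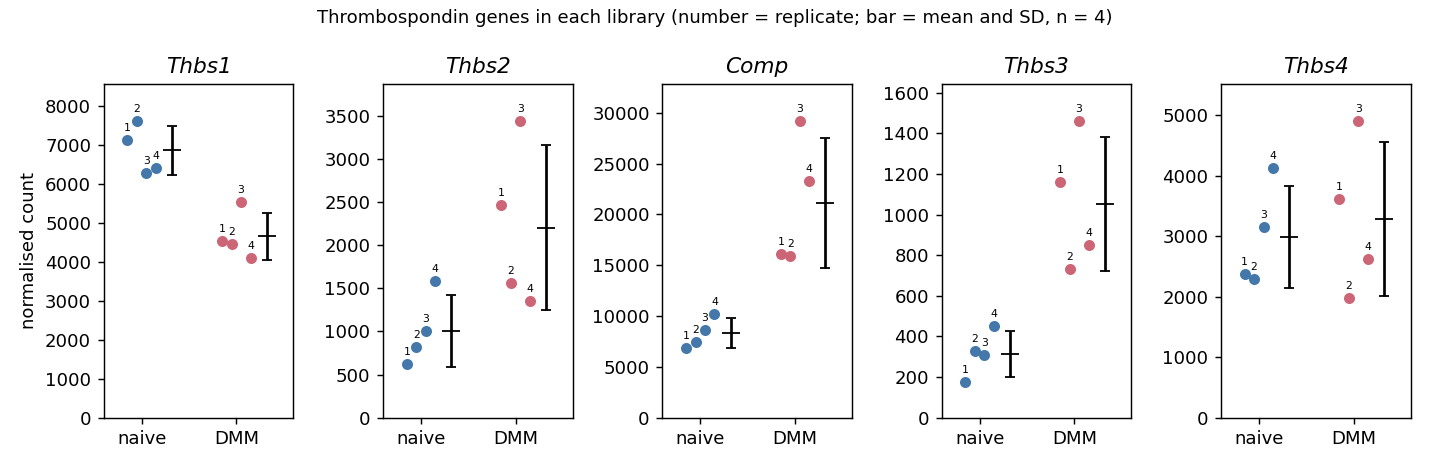
Normalised count (vertical axis, linear from 0) of each thrombospondin gene in the 4 naive (blue) and 4 DMM (red) libraries. Points are libraries numbered by replicate, and bars give the mean and SD. The groups are apart for Thbs1, Comp and Thbs3 and overlap for Thbs2 and Thbs4.

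Comp, the cartilage pentamer, rose 2.55-fold after DMM. Its normalised counts were 6887, 7438, 8585 and 10244 in naive libraries 1 to 4 and 16094, 15935, 29210 and 23245 in DMM libraries 1 to 4. Every DMM library lay above every naive library. The mean rose from 8288 ± 1483 to 21121 ± 6380 (SD, n = 4 each), which is a log2 fold change of 1.35 (SE 0.204, 95% interval of the fold 1.93 to 3.36, DESeq2 adjusted p = 6.4e-09). Leaving out any 1 of the 8 libraries left Comp called. Without DMM 3, the library with the most Comp, the log2 fold change was 1.15. With size factors taken as the median of ratios over the chondrocyte marker genes instead, the log2 fold change was 0.61. The call was then lost (DESeq2 adjusted p = 0.0694), on a scale where the median of all genes tested was -0.70.

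Thbs3, a pentamer expressed in the growing skeleton, had the lowest counts of the family and the largest fold change of the 5. Its normalised counts were 173.2, 325.9, 306.1 and 450.1 in naive libraries 1 to 4. In DMM libraries 1 to 4 they were 1162, 732.1, 1462 and 851.1. The lowest DMM library held more Thbs3 than the highest naive library. The mean rose from 313.9 ± 113.4 to 1052 ± 328.1 (SD, n = 4 each), which is a log2 fold change of 1.75 (SE 0.271, 95% interval of the fold 2.32 to 4.85, DESeq2 adjusted p = 1.79e-08). Whichever of the 8 libraries was left out it was called, at log2 fold changes between 1.55 (without DMM 3, and also without naive 1) and 1.97 (without naive 4). Under the chondrocyte marker scale it was 1.12 and remained called (adjusted p = 0.00659).

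Neighbours of Thbs3 were read for comparison because reads from sequence shared by overlapping genes cannot be told apart where strand is not used in counting. Use of strand was not stated. Of the 31-base stretches in Thbs3 transcripts, 4.714% were shared with Mtx1. Mtx1, which overlaps Thbs3 over 11658 bases, measured 194.4 ± 21.2 in the naive and 196.6 ± 22.7 in the DMM group (SD, n = 4 each, log2 fold change 0.02, SE 0.154, DESeq2 adjusted p = 0.961). Muc1, a membrane mucin that starts 13877 bases from the start of Thbs3 on the same strand, was called higher. Its normalised counts were 6.16, 19.96, 16.1 and 20.4 in naive and 44.0, 70.9, 75.7 and 108.3 in DMM libraries, which did not overlap (log2 fold change 2.28, SE 0.397, DESeq2 adjusted p = 6.88e-07). The microRNA gene Mir92b was listed at 0 in all libraries and Gm43737 was not analysed here.

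Thbs2, the trimer that acts on collagen fibrils, was higher after DMM but varied more between mice than Comp. Naive libraries 1 to 4 held 617.3, 818.2, 1001 and 1583 normalised counts and DMM libraries 1 to 4 held 2461, 1557, 3442 and 1357. DMM 2 and DMM 4 fell below naive 4, so the groups overlapped. The mean rose from 1005 ± 416.0 to 2204 ± 954.7 (SD, n = 4 each), which is a log2 fold change of 1.13 (SE 0.432, 95% interval of the fold 1.22 to 3.95, DESeq2 adjusted p = 0.0411). The coefficient of variation was 41.4% in naive and 43.3% in DMM libraries, against 17.9% and 30.2% for Comp. The call depended on single libraries. It was lost without DMM 1 (adjusted p = 0.119), naive 1 (0.128), naive 2 (0.123) or naive 3 (0.107), and stayed in 4 of 8 such fits, among them that without DMM 3 (log2 fold change 0.84, adjusted p = 0.0201). With the replicate number as a block the adjusted p was 0.0787.

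Thbs1, the trimer of platelet granules, was the member with less transcript in DMM cartilage. Its normalised counts were 7128, 7614, 6278 and 6396 in naive and 4529, 4442, 5518 and 4102 in DMM libraries. All DMM libraries lay below all naive libraries. The means were 6854 ± 630.8 and 4648 ± 608.7 (SD, n = 4 each), and the log2 fold change was -0.56 (SE 0.121, 95% interval of the ratio 0.575 to 0.799, DESeq2 adjusted p = 9.03e-05). The size of the change lay close to the fold threshold, and Thbs1 was called in 3 of 8 fits with a library left out, namely without DMM 3 (log2 fold change -0.65), naive 3 (-0.60) or naive 4 (-0.59). Scaled to chondrocyte markers it was called lower at -1.25. The noncoding gene Gm13986, a neighbour on the opposite strand that starts 674 bases from the start of Thbs1 and does not overlap it, was not called (log2 fold change -0.38, DESeq2 adjusted p = 0.688).

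Thbs4, the pentamer of tendon and muscle, did not pass the test. Naive libraries 1 to 4 held 2375, 2302, 3158 and 4124 normalised counts, and DMM libraries 1 to 4 held 3620, 1981, 4913 and 2622. The lowest and the highest values of the 8 were both in DMM libraries. The means were 2990 ± 849.6 and 3284 ± 1278 (SD, n = 4 each). The log2 fold change was 0.14 (SE 0.26, DESeq2 adjusted p = 0.777), and its sign turned without DMM 3 (-0.12) and under the chondrocyte marker scale (-0.56). No fit that left out a library called it.

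**Figure D2:**
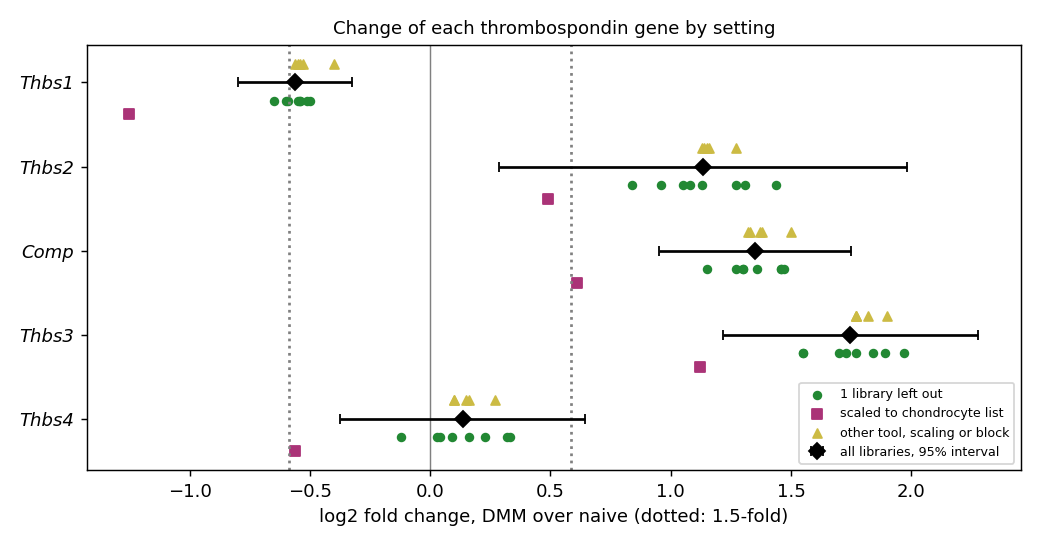
Log2 fold change, DMM over naive (horizontal axis), of each thrombospondin gene. Diamonds with bars are the fit of all 8 libraries with its 95% interval, circles the fits without 1 library, triangles other tools, scalings or the replicate block, squares the scaling to chondrocyte markers, and dotted lines 1.5-fold. Comp and Thbs3 stay right of the 1.5-fold line in every setting shown, Thbs1 lies near the left line except for the square at -1.25, and Thbs4 lies on both sides of 0.

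Because a ratio of genes within a library does not depend on the scaling between libraries, the balance of the family was also described by ratios, with no test. The log2 ratio of Comp to Thbs1 was -0.05, -0.03, 0.45 and 0.68 in naive and 1.83, 1.84, 2.40 and 2.50 in DMM libraries. The log2 ratio of Thbs2 to Thbs1, the related trimers, was -3.53, -3.22, -2.65 and -2.01 in naive and -0.88, -1.51, -0.68 and -1.60 in DMM libraries. Both ratios were higher in every DMM library than in any naive library. Within the pentamers, the log2 ratio of Comp to Thbs4 was 1.31 to 1.69 in naive and 2.15 to 3.15 in DMM libraries, again without overlap. The log2 ratio of Comp to Thbs3 was 4.51 to 5.31 in naive and 3.79 to 4.77 in DMM libraries and overlapped.

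Of all estimated counts, the 5 genes together took 0.1305% ± 0.0208 in naive cartilage and 0.2408% ± 0.0628 in DMM cartilage (SD, n = 4 each), with ranges of 0.11% to 0.158% and 0.184% to 0.327%. Thbs1 counts were close to Comp counts in naive 1 and naive 2, lower in naive 3 and naive 4, and well below them in every DMM library. Comp accounted for 40.08% to 44.94% of the family's counts in naive and 57.75% to 72.24% in DMM libraries. Thbs1 accounted for 28.06% to 41.49% and then 12.39% to 18.02%. The share of Thbs3 was 1.01% to 1.97% in naive and 2.65% to 4.17% in DMM libraries. Those of Thbs4 (12.44% to 18.09% and 8.04% to 12.99%) and Thbs2 (3.59% to 6.94% and 4.22% to 8.83%) overlapped.

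**Figure D3:**
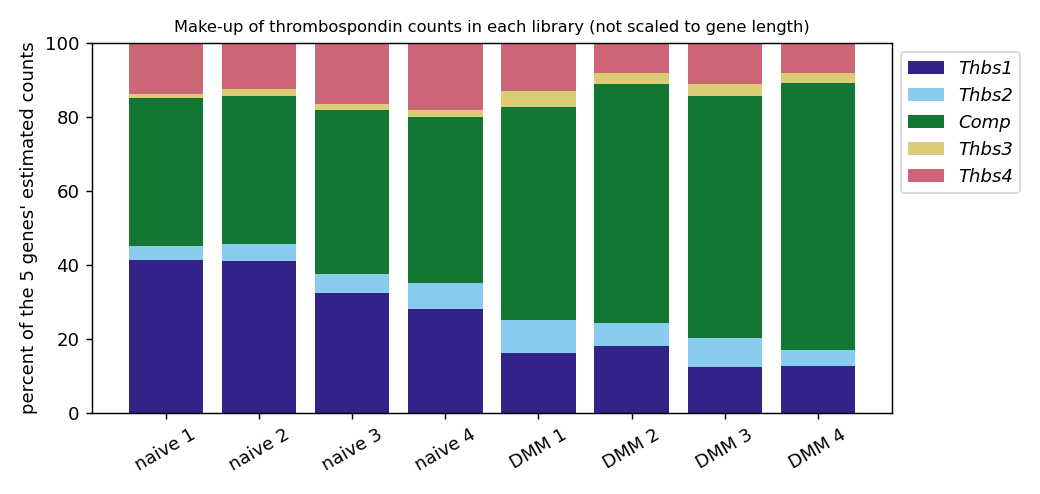
Percent of the summed estimated counts of the 5 thrombospondin genes (vertical axis, not scaled to gene length) taken by each gene in each library. Comp takes 40.08% to 44.94% in the naive and 57.75% to 72.24% in the DMM libraries, and Thbs1 takes at most 18.02% in the DMM libraries.

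Levels of different genes were compared per kilobase, as normalised count divided by the longest annotated transcript. On that scale Comp led in both groups, with 3431 ± 614.0 per kilobase in naive and 8742 ± 2641 in DMM cartilage (SD, n = 4 per group). In naive cartilage Thbs1 (1172 ± 107.9 per kilobase) and Thbs4 (934.9 ± 265.7) followed with overlapping ranges, and then Thbs2 (170.4 ± 70.6) and Thbs3 (77.8 ± 28.1), which also overlapped. In DMM cartilage the order was Thbs4 (1027 ± 399.7 per kilobase), Thbs1 (794.7 ± 104.1), Thbs2 (373.9 ± 162.0) and Thbs3 (260.7 ± 81.3), where Thbs4 overlapped Thbs1 and Thbs2 overlapped Thbs3. Per kilobase of coding length, Thbs1 (1323) stood above Thbs4 (1137) in DMM cartilage, so the order of neighbours that overlap depends on the length used. The longest Thbs3 transcript, of 4034 bases, retains an intron, and its longest coding transcript has 3190 bases.

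Mice differed together in several members. DMM 3 had the highest level of all 5 genes among DMM libraries, and naive 4 had the highest level of Comp, Thbs2, Thbs3 and Thbs4 among naive libraries. Deviations of log2 levels from the group means had a Pearson r of 0.918 for Thbs2 and Thbs3, 0.912 for Thbs2 and Thbs4, and 0.828 for Thbs3 and Thbs4 over the 8 libraries. Those of Comp with Thbs2, Thbs3 and Thbs4 were 0.603, 0.646 and 0.722. Thbs1 had values of 0.163 to 0.278 with the others. These values describe 8 libraries that share size factors and sample composition, and no p is given.

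Among 11013 genes whose mean normalised count was 100 or more, those whose log2 levels followed each member most closely over the 8 libraries were named as a description. Their r includes the difference between groups, and the r of deviations from the group means is given after it. The genes were picked for a high r, so high values follow from the choice, and the second r uses the same 8 libraries. For Comp they were Fkbp14, an endoplasmic reticulum prolyl isomerase for collagens (0.996 and 0.984), Golgb1, a large Golgi tether (0.995 and 0.986), and Ptpn4 (0.992 and 0.958). For Thbs3 they were Pcolce, the enhancer of procollagen C-proteinase (0.997 and 0.986), Rassf8 (0.994 and 0.979) and Clec11a, a secreted bone growth factor (0.994 and 0.970). For Thbs2 they were Aebp1, a collagen-binding matrix protein (0.989 and 0.975), Ssc5d (0.988 and 0.973) and Acta2, smooth muscle actin (0.985 and 0.972). For Thbs4 they were Cd248, a stromal and pericyte surface protein (0.930 and 0.959), Abca8b (0.919 and 0.924) and Vps45 (0.905 and 0.904). For Thbs1 they were Naa35 (0.990 and 0.949), Hba-a1, an alpha-globin gene of red cells (0.988 and 0.971), and Dok2, an adaptor of blood cells (0.986 and 0.966).

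Receptors that bind thrombospondins changed in both directions. Of 14 receptor genes tested, 3 were called higher and none lower, where 7.75% of all genes tested were called higher and 5.92% lower, and the median log2 fold change was 0.10 beside -0.02 over all genes tested. The same shares of all genes apply to each list that follows, except where scaled to chondrocyte markers. Cacna2d1, a calcium channel subunit that binds thrombospondins on neurons, rose by 0.75 on the log2 scale (SE 0.179, DESeq2 adjusted p = 0.000427). Lrp1, the endocytic receptor that clears Thbs1 and Thbs2, rose by 0.67 (SE 0.172, adjusted p = 0.00137), and the integrin chain Itga3 rose by 0.88 (SE 0.244, adjusted p = 0.00302). Lrp1 lost its call without naive 1 (0.57). Scaled to chondrocyte markers, none of the 14 was called higher (Cacna2d1 0.05, Lrp1 0.03, Itga3 0.24) and 7 were called lower. On that scale 6552 genes were called, 83 of them higher, and the median of all genes tested was -0.70. Without that scaling, a further 4 passed the adjusted p below the fold threshold in each direction, and 22.6% of all genes tested passed that p at any fold. The integrin chains Itgav and Itgb3, which can pair as a receptor for Thbs1, had log2 fold changes of 0.58 and -0.55 (adjusted p = 0.00013 and 0.000224). Neither was called. Cd47 had -0.43 (adjusted p = 0.0054) and Cd36 had -0.14 (adjusted p = 0.70). Itgav, Itgb3, Cd47 and Cd36 were singled out after their values were seen.

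Matrix partners of the pentamers were mostly higher. Of 16 genes for collagens, matrilins and other binding partners, 15 were tested, 9 were called higher and none lower, and the median log2 fold change was 1.22. Col1a1 and Col1a2, the chains of type I collagen, had log2 fold changes of 1.23 (SE 0.196, DESeq2 adjusted p = 4.53e-08) and 1.22 (SE 0.185, adjusted p = 6.62e-09). Acan, the large proteoglycan aggrecan, rose from 6962 ± 1277 to 14809 ± 2452 normalised counts (log2 fold change 1.09, adjusted p = 7.75e-09). The matrilin Matn2 rose from 248.6 ± 91.3 to 735.4 ± 172.5 normalised counts (1.57, adjusted p = 1.43e-07). Among further cartilage partners, singled out after their values were seen, Col2a1 was called at 1.41 (SE 0.425, adjusted p = 0.00703), Col9a2 had 0.56 and Col9a3 had 0.22, and neither passed the test. Col9a1 had -0.36 (SE 0.872, adjusted p = 0.83) and Matn3 had -0.29 (SE 0.926, adjusted p = 0.873), and differences between these genes were not tested. Scaled to chondrocyte markers, 2 of the partners were called higher, and Col1a1 (0.66), Col1a2 (0.63) and Acan (0.43) were not. Of all genes, 83 were called higher on that scale. Several of these genes, Col2a1, Acan, Col9a1, Col9a2, Matn1 and Matn3, also stand in the chondrocyte list.

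**Figure D4:**
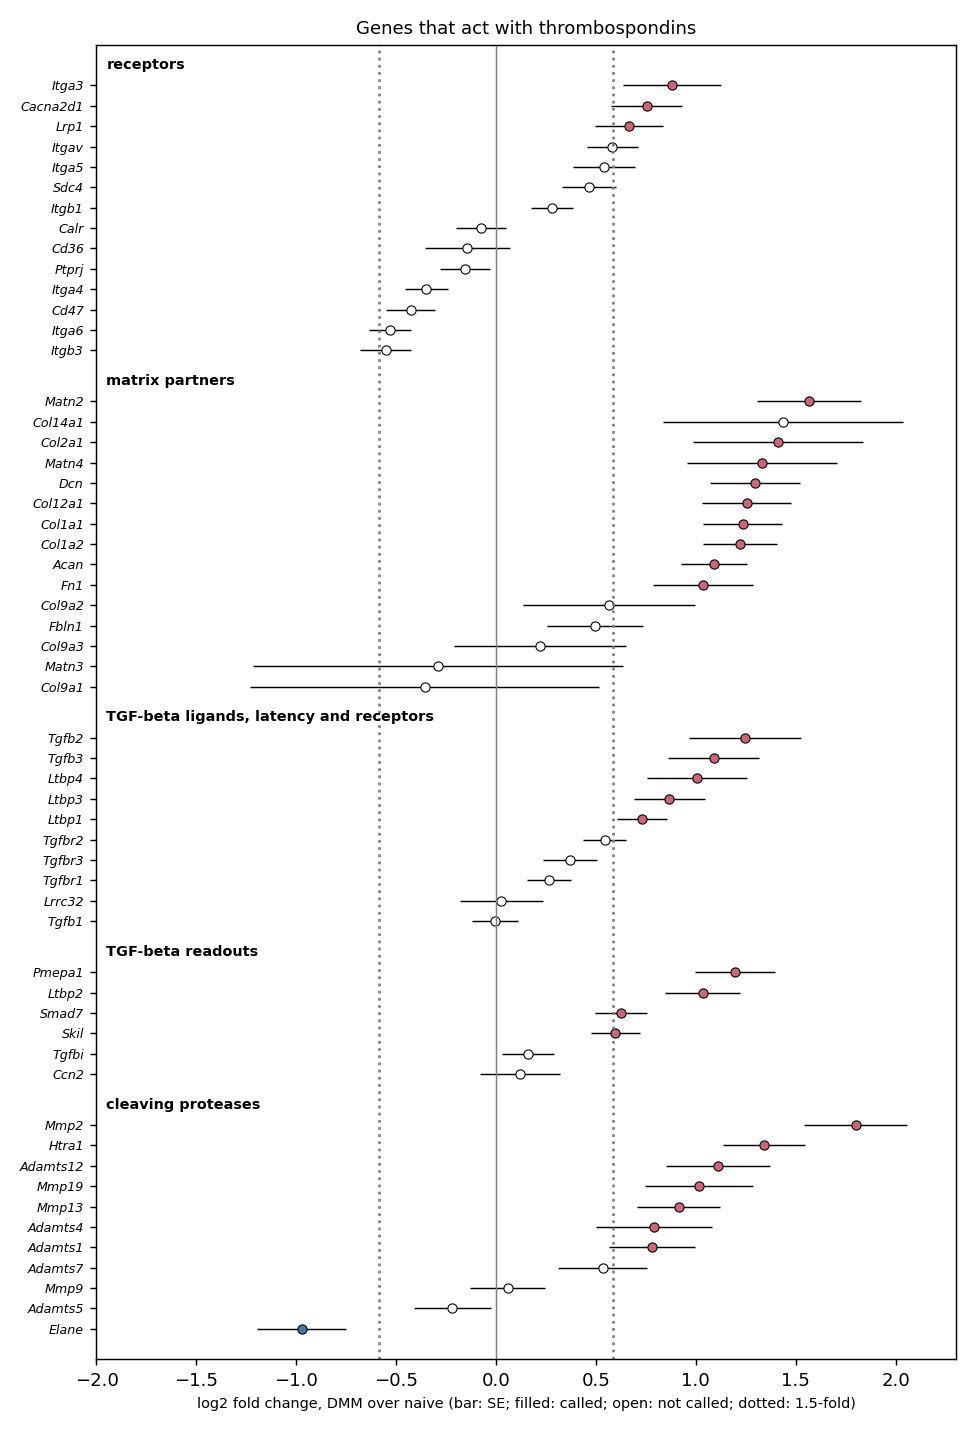
Log2 fold change, DMM over naive (horizontal axis), of genes that act with thrombospondins, grouped by role. Points are genes, bars the SE, filled points called genes, open points genes not called, and dotted lines 1.5-fold. The matrix partners, TGF-beta genes and proteases lie mostly to the right, the receptors on both sides, and Elane alone is called lower.

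TGF-beta, which Thbs1 can release from its latent complex, had ligand and latency genes among those called higher. Of 10 genes for ligands, latency proteins and receptors, 5 were called higher and none lower (median log2 fold change 0.64). The ligands Tgfb2 and Tgfb3 had log2 fold changes of 1.25 (SE 0.28, DESeq2 adjusted p = 0.000171) and 1.09 (SE 0.229, adjusted p = 5.65e-05). Ltbp1 and Ltbp3, latent TGF-beta binding proteins, had 0.73 (SE 0.124, adjusted p = 3.17e-07) and 0.87 (SE 0.179, adjusted p = 4.03e-05). Tgfb1, singled out after its value was seen, had -0.01 (SE 0.116, adjusted p = 0.985). Of 6 genes known to respond to TGF-beta, 4 were called higher and none lower (median 0.61). Pmepa1 and Skil, feedback inhibitors of the pathway, had 1.20 (SE 0.199, adjusted p = 1.87e-07) and 0.60 (SE 0.123, adjusted p = 3.84e-05). Smad7, the inhibitory Smad, had 0.63 (SE 0.132, adjusted p = 6.31e-05) and Ltbp2 had 1.03 (SE 0.188, adjusted p = 2.28e-06). Ccn2 and Tgfbi, the readouts not called and singled out for that, had 0.12 and 0.16. The call of Skil was lost without DMM 3, DMM 4, naive 1 or naive 2 (log2 fold changes of 0.55 to 0.57) and that of Smad7 without DMM 2 (0.57). Scaled to chondrocyte markers, none of the genes in these 2 lists was called. On that scale 83 of all genes were called higher, and the median of all genes tested was -0.70.

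Proteases that cut thrombospondins or their partners were mostly higher. Of 12 genes, 11 were tested, 7 were called higher and 1 lower, and the median log2 fold change was 0.79. Mmp2, a gelatinase removed through Thbs2 and Lrp1, rose from 1715 ± 500.0 to 5969 ± 2005 normalised counts (log2 fold change 1.80, SE 0.257, DESeq2 adjusted p = 6.43e-10). Htra1, a serine protease of the matrix, had 1.34 (SE 0.205, adjusted p = 1.03e-08) and the collagenase Mmp13 had 0.91 (SE 0.208, adjusted p = 0.000222). Elane, neutrophil elastase, fell by 0.97 (SE 0.223, adjusted p = 0.000238), and it also stands in the neutrophil lineage list. The ADAMTS proteases of the list were singled out after their values were seen. Of 2 known for cutting Comp, Adamts12 was called at 1.11 (adjusted p = 0.000372) and Adamts7 had 0.53 (adjusted p = 0.0688). Adamts1 and Adamts4 were called at 0.78 and 0.79 (adjusted p = 0.00302 and 0.0339), Adamts4 in 3 of 8 fits with a library left out. Adamts5 had -0.22 and was not called. Scaled to chondrocyte markers, 1 of the proteases was called higher and 1 lower, and Htra1 (0.68) and Mmp13 (0.23) were not called. Of all genes, 6552 were called on that scale, 83 of them higher.

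Several marker lists of other cell types, some of which are known to express thrombospondins, moved with the groups. The 8 megakaryocyte and platelet markers, cells that store Thbs1, had sums of normalised counts between 5636 and 8735 in naive and between 2929 and 3805 in DMM libraries, and 7 of 8 were called lower (two-sided exact permutation p = 0.0286, the smallest that 4 against 4 allows). Pf4, a platelet chemokine singled out as an example, had 1282 to 1885 in naive and 609.5 to 941.8 in DMM libraries. The 4 tendon and ligament markers, from tissue that expresses Comp and Thbs4, summed to 98.5 to 175.7 in naive and 190.3 to 499.7 in DMM libraries, with 3 of 4 called higher (exact p = 0.0286). Among DMM libraries DMM 3, highest in all 5 thrombospondins, also had the highest tendon and ligament, synovial fibroblast and erythroid sums. The highest DMM sums of the remaining lists were in other libraries. The 5 synovial fibroblast markers summed to 1887 to 3026 in naive and 3044 to 5333 in DMM libraries, with 4 of 5 called higher (exact p = 0.0286). Osteoblast and osteocyte markers summed to 14301 to 20199 in naive and 27828 to 59134 in DMM libraries, with 5 of 6 called higher (exact p = 0.0286). Endothelial markers summed to 3410 to 4065 in naive and 4504 to 5143 in DMM libraries, with 3 of 6 called higher (exact p = 0.0286). Erythroid markers summed to 153894 to 301189 in naive and 79267 to 170410 in DMM libraries, with 6 of 7 called lower (exact p = 0.0571). For the summed chondrocyte and neutrophil lineage markers the exact p was 0.0286. Macrophage markers had sums of 5974 to 7157 and 5532 to 6844 (exact p = 0.971), and skeletal muscle markers 73.2 to 461.3 and 51.4 to 1215 (exact p = 0.857). The exact p values were not adjusted for the number of lists. Any sum whose groups do not overlap gives an exact p of 0.0286, and 22.2% of all genes tested had groups that did not overlap. No marker of any list was at 0 in every library. The part of these cell types in the levels of Thbs1, Thbs2, Thbs3 and Comp was not tested.

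**Figure D5:**
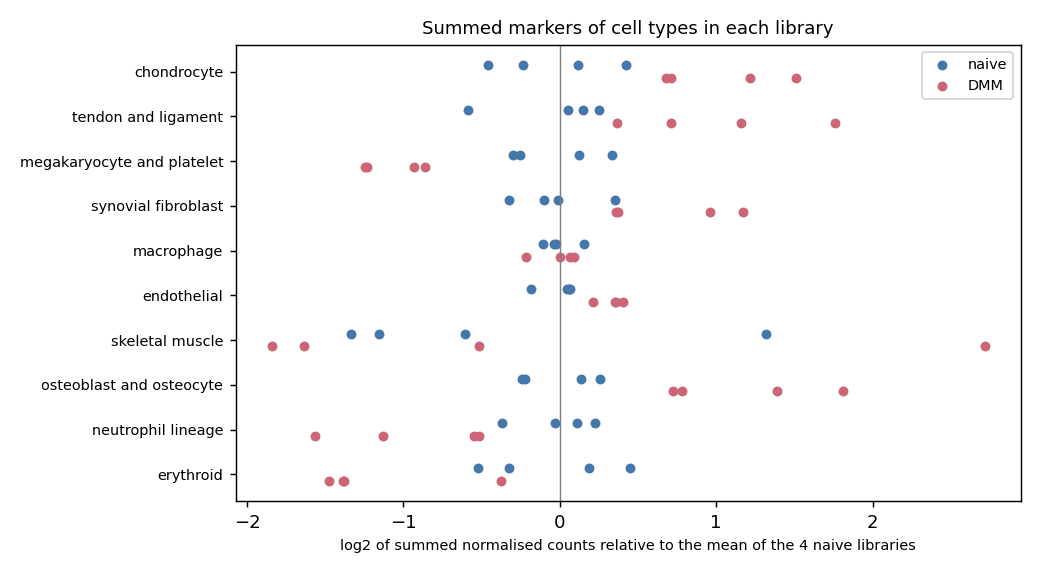
Summed normalised counts of each marker list in each library, as the log2 ratio to the mean of the naive libraries (horizontal axis). Points are libraries, blue naive and red DMM. The megakaryocyte and platelet sums of the DMM libraries lie below all naive sums, and the chondrocyte, tendon and ligament, synovial fibroblast, endothelial and osteoblast and osteocyte sums lie above them.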

How the data were processed

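RNA from medial knee cartilage caps of 4 naive and 4 DMM mice was sequenced, with 1 library per mouse. The authors trimmed the reads, pseudo-aligned them with Kallisto and summed transcripts to genes with tximport, and the deposited values are estimated counts per gene, of which 39.2% are not whole. The labels' processing notes name kallisto, DESeq2 and the human build GRCh38, whereas GRCm38 is given in the study's methods next to an Ensembl release built on GRCm39, which leaves the build unsettled. Library kit names also differ between labels and methods. Use of strand in counting was not stated.

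Estimated counts were rounded and tested with DESeq2 1.42.0 in R 4.3.3 (median-of-ratios scaling, Wald test, all 8 libraries, no covariate, Benjamini-Hochberg adjustment over all genes tested), after the study's methods. Genes were called at an adjusted p of 0.05 or less and 1.5-fold or more. edgeR 4.0.16, limma 3.58.1, other scalings, filters, a replicate block and leaving out each library were tried as alternatives, and the fits were tested on simulated data. For marker sums, all 70 assignments of libraries to groups were enumerated (exact permutation test, two-sided). Coordinates came from the GENCODE vM21 annotation of GRCm38, matched by gene identifier.

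The members and lists were chosen with earlier results of these data known. Named genes were all members, up to 4 called genes of each list with the smallest adjusted p, any gene called against the direction of its list, the 3 genes closest to each member (Pearson correlation of log2 of the normalised count plus 1) and annotated genes that overlap a member or lie within 10 kb of it. Genes outside this rule are named as singled out. From the list of TGF-beta readouts, 1 gene is not reported here and is left out of its counts.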

Additional observations from a re-analysis of the deposited data

Results flagged for a closer look

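Of 122 sets of 4 libraries, 8 had 1 library far from the other 3 by Dixon's test at 95%. Chance flags about 1 in 20 such sets. DMM 3 held 26222 normalised counts of Hba-a1, which followed Thbs1 closely, against 12477 to 13833 in the other DMM libraries, and its summed erythroid markers were 170410 against 79267 to 84845. Among receptor genes, Itgav had 2136 in naive 4 against 1565 to 1659, and Itgb3 had 3340 in DMM 4 against 3128 to 3155. Smad7, a TGF-beta readout, had 412.1 in naive 3 against 335.9 to 336.8 in the other naive libraries. Summed endothelial markers were 3410 in naive 2 against 4007 to 4065. Summed skeletal muscle markers were 461.3 in naive 3 against 73.2 to 121.3 and 1215 in DMM 1 against 51.4 to 129.0. No thrombospondin gene was flagged.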

How the results depend on the processing

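Comp and Thbs3 kept their calls with edgeR, limma-voom, TMM factors, total counts, no independent filtering, a count filter, a null of 1.5-fold (DESeq2 adjusted p = 0.0387 and 0.00791), the replicate block and each library left out. Scaling to chondrocyte markers had the widest effect: Comp 0.61 (adjusted p = 0.0694) and Thbs2 0.49 (0.287) lost their calls, Thbs1 was called at -1.25, Thbs4 turned to -0.56, and 1 thrombospondin was called higher and 1 lower. That scale moved the median of all genes tested to -0.70, and 6552 genes were called, 83 of them higher. Calls higher in the lists fell on it from 3 to 0 for receptors (7 called lower), 9 to 2 for matrix partners, 5 to 0 for TGF-beta ligands, latency and receptors, 4 to 0 for TGF-beta readouts and 7 to 1 for proteases, and Pmepa1 (0.56), Ltbp2 (0.36), Ltbp1 (0.05), Ltbp3 (0.24), Tgfb2 (0.54) and Tgfb3 (0.45) were among the calls lost. Total counts moved the median to 0.14, with 2030 of 2519 called genes higher, against 1377 of 2429. Thbs2, at 1.13, also lost its call with no independent filtering (adjusted p = 0.0794), with the replicate block (1.13, 0.0787) and against a 1.5-fold null (1.13, 1.0). Without a fold threshold 4010 genes were called, Thbs1 among them at -0.56, so 1 thrombospondin was called lower, and against the 1.5-fold null 94 genes were called, 80 of them higher, with 1 matrix partner, 2 proteases and none of the other lists. With total counts 6 receptors were called higher, and without naive 4 there were 5. Leaving out 1 library gave log2 fold changes of 0.84 to 1.44 for Thbs2, -0.65 to -0.50 for Thbs1 and -0.12 to 0.33 for Thbs4, and 0 to 1 thrombospondins called lower. In the order per kilobase in DMM cartilage, 2 members changed rank with coding length and 2 with mean transcript length. Directions also turned on the chondrocyte scale for Skil (-0.10), Smad7 (-0.02), Golgb1 (-0.38), Ptpn4 (-0.26), Rassf8 (-0.04), Cd248 (-0.10), Abca8b (-0.70), Vps45 (-0.66), Itgav (-0.12) and Mtx1 (-0.65), and with total counts for Cd36 (0.00). Without 1 library they turned for Abca8b (-0.22 to 0.16), Vps45 (-0.04) and Mtx1 (-0.04 to 0.09). In the reported fit of all 8 libraries these genes were near 0, at 0.00, 0.03 and 0.02 (DESeq2 adjusted p = 0.995, 0.92 and 0.961). The cause was not tested. Mice of the same replicate number did not deviate together (r of -0.181 to 0.098), so the replicate block rests on numbers only, and 2081 genes were called with it.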
